A study of Mus musculus with 2 samples.

Results

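Shallow astrocyte-like barcodes are the droplets of these single-cell libraries in which astrocyte transcripts were present but fewer than 1000 unique molecular identifiers (UMIs, the counted RNA molecules) were found in all. A barcode belonged to the class when it held at least 200 detected genes and at most 20% mitochondrially encoded UMIs. The 10 astrocyte genes Aldoc, Slc1a2, Slc1a3, Clu, Gja1, Ntsr2, Acsbg1, Aqp4, Gjb6 and Slc4a4 also had to sum to at least 1% of its UMIs. They had to exceed the sum of 7 genes of other cells, namely the neuronal Snap25, Syt1 and Chgb, the microglial Ctss and C1qb, the endothelial Cldn5 and the oligodendrocyte gene Mag. Members were thus selected on their depth and on the summed levels of these 17 genes, which are described below without a test. The class held 411 of the 1736 barcodes that passed the gene and mitochondrial limits, and 2070 barcodes were deposited. The control library held 190 of these members and the MNPQ library 221.

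The study used droplet (10x Genomics Chromium) single-cell RNA sequencing of C57BL/6 mice whose tissue is labelled substantia nigra, the midbrain region affected in Parkinson's disease. MNPQ mice received intraperitoneal paraquat (10 mg/kg) and then maneb (30 mg/kg) over 3 weeks, with 2 rounds each week, and both groups carry an age label of 10 weeks. Control mice are labelled untreated although saline injections are described for them, and the sex label reads pooled although 3 males of each group are said to have been taken. Tissue punched from slices of 1 mm was incubated in papain (2 mg/ml, 34 °C, 30 minutes), then triturated over 35 minutes. Cells pooled over the animals of a group formed 1 library, so no group has a replicate and no difference between the 2 libraries has a test. The 95% intervals cover counting error only.

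Astrocytes are the glial cells that clear glutamate from synapses through the transporters Slc1a2 and Slc1a3, buffer potassium, move water through Aqp4 and couple to each other through the gap junction proteins Gja1 and Gjb6. They also secrete the lipid carriers Apoe and Clu and supply neurons with antioxidants and metabolites. Malat1 and Neat1 are long noncoding RNAs that remain in the nucleus, Malat1 at high levels in most cells of the brain, whereas the RNAs of the mitochondrial genome and of ribosomal protein genes are found mainly outside it.

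The members made up 21.5% of the 882 kept control barcodes (exact Clopper-Pearson interval 18.9% to 24.4%) and 25.9% of the 854 kept MNPQ barcodes (23% to 29%). Among all astrocyte-like barcodes of any depth, 58.8% (53.2% to 64.2%, 190 of 323) were shallow in the control library and 66.6% (61.2% to 71.6%, 221 of 332) in the MNPQ library. Both pairs of intervals overlapped. The members nonetheless held few molecules, 126130 UMIs or 6.3% of those in kept control barcodes and 147315 UMIs or 7.52% of those in kept MNPQ barcodes. The control library held 2002640 UMIs in kept barcodes and the MNPQ library 1958634. The deep astrocyte-like barcodes, which met the same rule at 1000 UMIs or more, numbered 133 and 111 and held 411232 and 411524 UMIs. Across the libraries 2 barcode sequences were shared, and 0 of them were members.

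**Figure D1:**
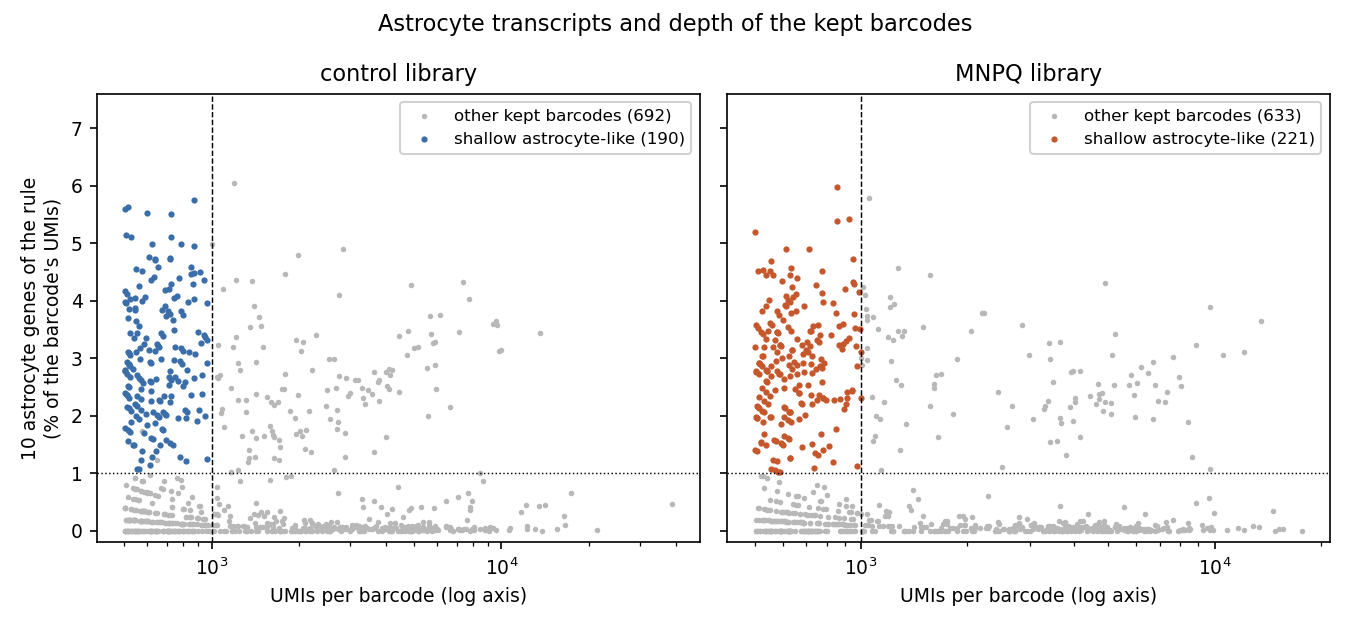
Share of each kept barcode's UMIs that came from the 10 astrocyte genes of the rule (vertical axis, %) against its UMIs (horizontal log axis), in the control library and the MNPQ library, with each point 1 barcode. Coloured points are the 190 and 221 shallow astrocyte-like barcodes, dashed lines mark 1000 UMIs and dotted lines the 1% limit. Control members run from 1.07% to 5.75% and MNPQ members from 1.02% to 5.98%.

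The depth of the members was alike in the 2 libraries. A control member held between 501 and 967 UMIs with a median of 638, and an MNPQ member between 500 and 997 with a median of 629. The median number of detected genes was 376.5 and 381, and after each barcode was thinned at random to 500 UMIs it was 312 and 318. The median mitochondrially encoded share was 11.5% and 11.3%, and the median ribosomal protein share was 5.37% and 5.6%. The rule fixed the marker share, whose median was 2.91% in control members and 2.87% in MNPQ members. All 7 genes of other cells together had 0 UMIs in 152 of 190 control members (80%) and in 172 of 221 MNPQ members (77.8%).

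At the depth limit the median mitochondrial share was lower just above than just below. In the control library the 13 members with 900 UMIs or more had a median marker share of 3.27% and a median mitochondrial share of 12.9%, and the 8 astrocyte-like barcodes from 1000 to under 1100 UMIs had 2.69% and 7.92%. In the MNPQ library the corresponding values were 3.31% and 9.98% in 21 members and 3.42% and 7.53% in 14 barcodes just above the limit. At the marker limit, 13 control and 20 MNPQ members lay between 1.0% and 1.5%, and 21 control and 9 MNPQ barcodes were left out with 0.5% to under 1.0%. At the mitochondrial limit, 16 control and 18 MNPQ barcodes that met the other criteria were left out.

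Astrocyte markers that the rule did not use were present in the members of both libraries. All 25 markers of that list were detected, and they summed to 3.64% of the control members' UMIs (3.54% to 3.75%) and 3.58% of the MNPQ members' UMIs (3.48% to 3.67%). In deep astrocyte-like barcodes these 25 genes summed to 3.88% and 3.83%. Shallow microglia-like barcodes, numbering 101 (control) and 71 (MNPQ) at median depths of 648 and 651 UMIs, held 0.336% and 0.327%, and 2 of the 71 MNPQ ones were also members. The most abundant transcript was Apoe, with 6998 UMIs or 55482 CPM (the UMIs of a gene in a class scaled to a fixed class total) in control members and 7340 UMIs or 49825 CPM in MNPQ members. A control member held a median of 33 Apoe UMIs, with a highest value of 107, and an MNPQ member a median of 31 with a highest value of 117. In shallow microglia-like barcodes Apoe stood at 3409 and 3870 CPM. Cst3, which encodes the protease inhibitor cystatin C, followed at 38881 and 40906 CPM, and stood higher in shallow microglia-like barcodes, at 119847 and 114287 CPM. Mt1, which encodes a zinc-binding metallothionein, stood at 9831 and 11649 CPM.

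Markers of other cells were low but not absent, and the oligodendrocyte list had the highest share. Its 9 genes held 0.687% of control members' UMIs (0.642% to 0.734%) and 0.855% of MNPQ members' UMIs (0.808% to 0.903%), against 0.146% and 0.282% in deep astrocyte-like and 0.384% and 0.491% in shallow microglia-like barcodes. Most of it was the myelin gene Mbp, with 617 and 949 UMIs, whereas Mag, which the rule used, had 5 and 3 UMIs and Mog, another myelin gene, was at 0 in control members. The microglia list of 10 genes held 0.0801% and 0.0747% of the members' UMIs, with the microglial receptor gene Cx3cr1 at 0 in both libraries. The neuron list held 0.0436% and 0.0713%, the endothelial list 0.0381% and 0.0231% and the mural list 0.0254% and 0.0095%. The ependymal list held 0.027% and 0.00815%, with the ciliogenesis factor Foxj1 at 0 in both, and the oligodendrocyte precursor and fibroblast lists at most 0.00272%. The red cell list held 0.0793% of control and 0.0149% of MNPQ members' UMIs, and the hemoglobin gene Hbb-bs was found in 38 of 190 control and 8 of 221 MNPQ members. The part of these transcripts in the differences below was not tested.

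Malat1 was close to absent from the members, although it was the leading nuclear transcript of deeper astrocyte-like barcodes. No Malat1 UMI was found in 134 of 190 control members (70.5%, interval 63.5% to 76.9%) and in 180 of 221 MNPQ members (81.4%, 75.7% to 86.3%). Among deep astrocyte-like barcodes, 11 of 133 control (8.27%) and 32 of 111 MNPQ barcodes (28.8%) had none. After every barcode was thinned to 500 UMIs, Malat1 was missing from 74.7% and 83.7% of members and from 15.8% and 36% of deep barcodes. Malat1 lies on chromosome 19 (5795690 to 5802672, minus strand, mm10) and is annotated as a long intergenic noncoding RNA (lincRNA).

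The members' Malat1 molecules were concentrated in a few barcodes. Summed over the class Malat1 reached 608 UMIs (4820 CPM) in the control and 468 UMIs (3177 CPM) in the MNPQ library. The 3 highest barcodes held 451 of the control and 308 of the MNPQ molecules, or 74.2% and 65.8%. At least 5 Malat1 UMIs were found in 8 control and 7 MNPQ members. Malat1 made up at least 1% of the UMIs in 7 of 190 control members (3.68%) and 7 of 221 MNPQ members (3.17%), where it reached 25.4% and 17.6% at most. In deep astrocyte-like barcodes this was so in 104 of 133 (78.2%) and 63 of 111 (56.8%), with medians over all of them of 12.2% and 3.34%. Few barcodes lay near that line, since 5 control and 1 MNPQ members and 2 and 5 deep barcodes had between 0.5% and 2%. The 1% line was chosen after these values were seen.

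**Figure D2:**
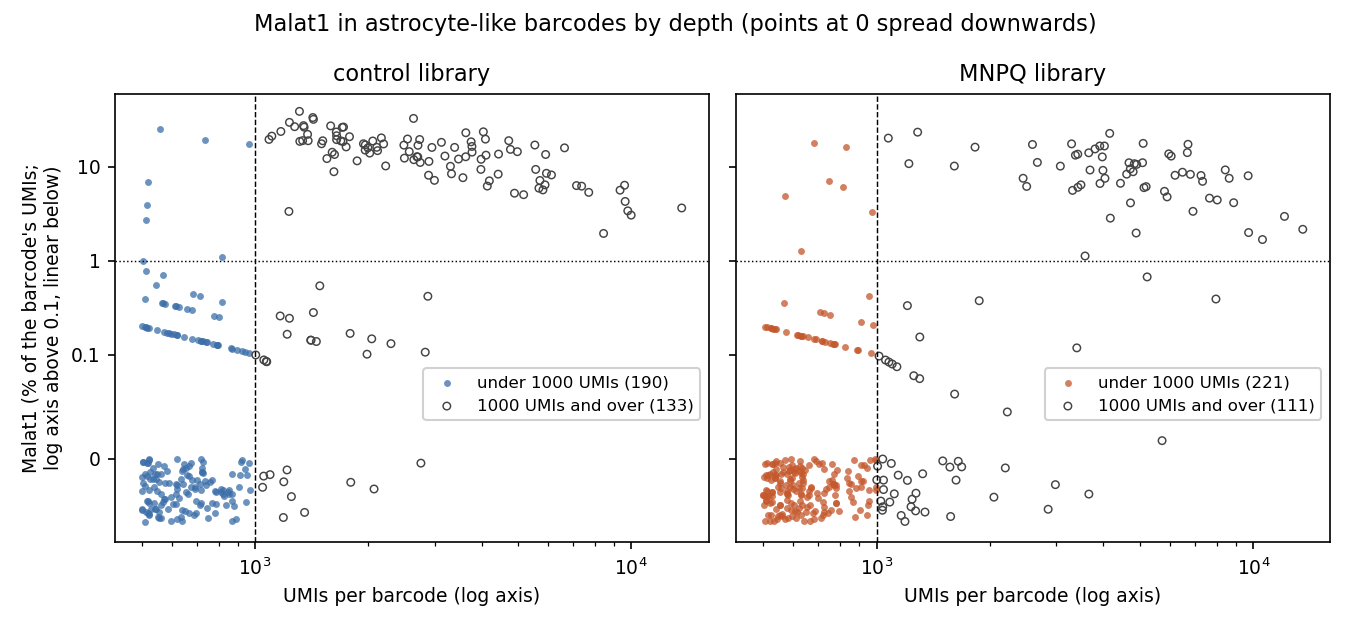
Malat1 share of each astrocyte-like barcode's UMIs (vertical axis, %, log above 0.1 and linear below) against its UMIs (horizontal log axis) in the control library and the MNPQ library. Filled points are members, open points barcodes of 1000 UMIs or more, points at 0 are spread downwards, the dashed line marks 1000 UMIs and the dotted line 1% Malat1. Of control barcodes from 1500 to under 2000 UMIs 87.5% lie above the 1% line, and of MNPQ barcodes 22.2%.

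Barcodes poor in Malat1 reached to higher depths in the MNPQ library. From 1000 to under 1200 UMIs, 3 of 13 control and 1 of 20 MNPQ astrocyte-like barcodes had at least 1% Malat1. From 1200 to under 1500 UMIs the counts were 12 of 22 and 2 of 14, and from there to under 2000 UMIs they were 21 of 24 and 2 of 9. From 2000 to under 3000 UMIs they were 22 of 28 and 4 of 9, and from 3000 UMIs upwards 46 of 46 control and 54 of 59 MNPQ barcodes were above 1%. Deep barcodes under 1% Malat1 numbered 29 (control) and 48 (MNPQ), with median depths of 1354 and 1262 UMIs, against 2724 and 4714 UMIs in deep barcodes at or above 1%.

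Shallow barcodes of other kinds were also poor in Malat1, to different extents. Among shallow microglia-like barcodes 77 of 101 control (76.2%) and 61 of 71 MNPQ barcodes (85.9%) had no Malat1 UMI. Among kept barcodes under 1000 UMIs that were neither astrocyte-like nor microglia-like the shares were 31.1% (47 of 151, 23.8% to 39.2%) and 61.9% (96 of 155, 53.8% to 69.6%), both below the members' intervals. At 1000 UMIs and over the kept barcodes that were not astrocyte-like had 7.17% and 11.4%. No test of these shares was possible with 1 library per group.

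Astrocyte markers were lower in the few Malat1-rich members than in the others. In the control library the 134 members without a Malat1 UMI had a median of 638 UMIs, a mitochondrial median of 11.7% and 3.69% of UMIs on the 25 astrocyte markers outside the rule. The 7 control members with at least 1% Malat1 had a median of 560 UMIs, a mitochondrial median of 6.96% and 1.92% on those markers. In the MNPQ library the 180 members without Malat1 had a median of 622 UMIs, a mitochondrial median of 11% and 3.6% on the markers. The 7 MNPQ members with at least 1% had 748 UMIs, 10.7% and 2.96%.

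Other transcripts that were low in the members relative to deep astrocyte-like barcodes were named by their ratio in both libraries. Among 1719 genes with at least 40 UMIs in each library, 95 (5.53%) were at least 2-fold lower and 9 (0.524%) at least 2-fold higher in members than in deep barcodes of both libraries. Of the same genes, 64 (3.72%) were 2-fold higher and 178 (10.4%) 2-fold lower in control members, 14.1% in all. In MNPQ members 25 (1.45%) were 2-fold higher and 147 (8.55%) 2-fold lower, 10% in all. For Malat1 the log2 ratio of CPM, shallow over deep, was -4.44 (-4.56 to -4.32) in the control library, where 43007 UMIs or 104581 CPM stood in deep barcodes. In the MNPQ library it was -4.37 (-4.50 to -4.24), with 26978 UMIs or 65556 CPM in deep barcodes.

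Ogt, which encodes the enzyme that attaches N-acetylglucosamine to nuclear and cytosolic proteins, had 0 UMIs in control members and 77 in deep control barcodes. Taking 3 counts over the class as the limit of a count of 0, Ogt was at least 7.87-fold lower in control members. The exact interval of its log2 ratio gave a weaker bound and reached up to -2.64. In the MNPQ library Ogt had 1 UMI in members and 85 in deep barcodes, a log2 ratio of -4.93 (-10.25 to -2.41). Neat1 had 2 UMIs in control members against 42, a log2 ratio of -2.69 (-5.78 to -0.74). In MNPQ members Neat1 was at 0 against 74, or at least 8.83-fold lower with the same limit of 3 counts, while its exact interval reached up to -2.81. Both genes were thus near the limit of detection in the members. The list of nuclear noncoding RNAs was mixed, with medians of -1.48 in the control library and -0.44 for MNPQ. Of its 6 measured genes, 2 were higher in control and 3 in MNPQ members, beside 50% and 39.5% of all 3242 genes measured for lists. Among them Meg3 was at 1.44 and 2.82, and Gm42418 at 0.37 (0.25 to 0.48) and 0.75 (0.44 to 1.06).

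Of the other lowest transcripts, 2 had more than 4 UMIs in the members of each library. Rsrp1, which encodes an arginine- and serine-rich protein, had 17 UMIs in members of each library against 344 and 398 in deep barcodes, with log2 ratios of -2.63 (-3.43 to -1.93) and -3.07 (-3.86 to -2.37). Without barcodes of at least 1% Malat1 the control ratio of Rsrp1 turned to 0.78, from 14 UMIs in members and 3 in deep barcodes. The noncoding transcript Gm3764 had 13 and 15 UMIs against 373 and 344, with log2 ratios of -3.14 (-4.06 to -2.35) and -3.04 (-3.89 to -2.30). Tnik (a kinase), Wsb1 (a ubiquitin ligase component), Ttc14, the clock gene Per3 and Krit1 had between 1 and 4 UMIs in the members of each library and between 41 and 95 in deep barcodes. Their log2 ratios were -3.28 and -4.07 for Tnik, -4.02 and -3.13 for Wsb1, -3.26 and -3.09 for Ttc14, -3.79 and -2.91 for Per3 and -4.02 and -2.88 for Krit1, each with an interval below 0.

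**Figure D3:**
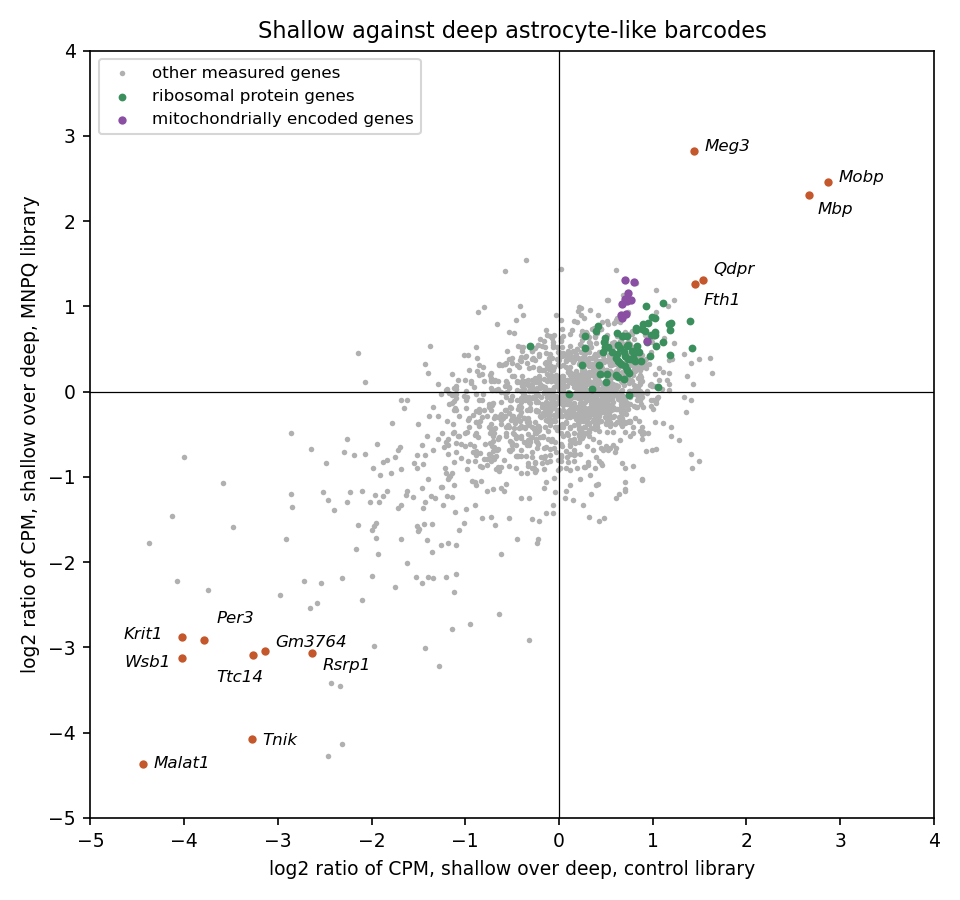
Log2 ratio of CPM in shallow over deep astrocyte-like barcodes, control library (horizontal axis) against MNPQ library (vertical axis), for genes with at least 40 UMIs in each library and at least 1 in every class. Each point is a gene, ribosomal protein genes are green, mitochondrially encoded genes purple, and named genes are labelled. Malat1 lies at -4.44 and -4.37, and the mitochondrially encoded and ribosomal protein genes lie mostly in the upper right.

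Transcripts of the mitochondrial genome and of ribosomal proteins took up more of the members' RNA than of the deep barcodes' RNA. All 11 measured mitochondrially encoded genes were higher in members of both libraries, with median log2 ratios of 0.72 in the control library and 1.06 for MNPQ, beside medians over 3242 genes measured for lists of -0.00037 and -0.15. Of these 3242 genes, 50% were higher in control members and 39.5% in MNPQ members. The rule capped the mitochondrial share, so these 11 genes were not free of it. Of 77 ribosomal protein genes, 75 were higher in members of each library, with medians of 0.73 and 0.51. Complexes III to V of the respiratory chain had 37 measured nuclear-encoded subunits, of which 37 were higher in control members (median 0.62) and 26 in MNPQ members (median 0.14). Complex I subunits were higher in 36 of 37 and 24 of 37, with medians of 0.51 and 0.041. Ribosomal protein genes have near-identical pseudogene copies, which makes their single counts uncertain.

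Per barcode these groups were nevertheless lower in members, whose total UMIs the rule limits. A control member held a mean of 74.9 mitochondrially encoded UMIs against 214 in a deep control barcode, and 37.1 against 102 ribosomal protein UMIs. An MNPQ member held 76 against 207 and 42 against 163. Lists of other cells lay closer together in the control library, with means per member and per deep barcode of 4.56 and 4.52 oligodendrocyte, 0.289 and 0.421 neuron, 0.532 and 0.707 microglia and 0.526 and 0.662 red cell UMIs. In the MNPQ library they were 5.7 and 10.5, 0.475 and 0.505, 0.498 and 0.802, and 0.0995 and 0.198.

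Mbp and Mobp, 2 genes of the myelin sheath, had the highest ratios of members over deep barcodes among the 1719 genes, outside the rule's own, when each gene was ranked by the smaller of its 2 ratios. Mbp stood at 4892 CPM in control members against 771 in deep control barcodes, a log2 ratio of 2.67 (2.47 to 2.87), and at 6442 against 1300 CPM in the MNPQ library, 2.31 (2.15 to 2.46). A control member held a mean of 3.25 Mbp UMIs and a deep control barcode 2.38, while MNPQ members held 4.29 and MNPQ deep barcodes 4.82. Mobp had log2 ratios of 2.87 and 2.46. In shallow microglia-like barcodes Mbp was at 2564 and 3581 CPM, or a mean of 1.71 and 2.44 UMIs per barcode. How many of the members' Mbp molecules came from RNA outside the cells was not tested.

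The other genes with the highest ratios included Fth1, the heavy chain of the iron store ferritin. Fth1 stood at 8943 CPM in control members and 3280 CPM in deep control barcodes, a log2 ratio of 1.45 (1.33 to 1.56), and at 11513 against 4799 CPM in the MNPQ library, 1.26 (1.17 to 1.36). Qdpr, which regenerates tetrahydrobiopterin, had ratios of 1.54 (0.82 to 2.26) and 1.31 (0.79 to 1.82). The imprinted noncoding RNA Meg3 had 20 and 38 UMIs in members and ratios of 1.44 and 2.82, but 55.3% of the molecules in MNPQ members came from 1 barcode. Rps24, Cdc123, Cox7a2l and Rplp1 had ratios between 0.93 and 1.16 in the control and between 1.00 and 1.19 in the MNPQ library.

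Most single genes for the uptake of glutamate and other transmitters were lower in members than in deep barcodes. The summed uptake transcripts, given below, showed no such difference in the MNPQ library. Of 8 measured genes outside the rule, 7 were lower in each library, with median log2 ratios of -0.85 in the control library and -0.78 for MNPQ. The exception was Glul, glutamine synthetase, at 0.37 (0.22 to 0.52) and 0.28 (0.15 to 0.41). The 25 astrocyte markers outside the rule had medians of -0.42 and -0.28, with 7 of 25 and 9 of 25 higher in members. Beside the background of 50% and 39.5% over all genes, the MNPQ count of markers lay near it. Slc1a2 and Slc1a3 belonged to the rule and are given as a description. Slc1a2 stood at 2711 CPM in control members against 3584 in deep control barcodes, and at 2593 against 2017 CPM in the MNPQ library.

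When only barcodes under 1% Malat1 were compared, 183 and 214 members with 29 and 48 deep barcodes, the medians of 4 of these groups were lower and that of the control markers turned from -0.42 to 0.38. The ribosomal protein median was -0.11 in the control library and 0.20 for MNPQ. The nuclear complex III to V subunits had medians of 0.025 and -0.17, the nuclear complex I subunits 0.019 and -0.32, and the mitochondrially encoded genes 0.47 and 0.72. Uptake transcripts, here with Slc1a2 and Slc1a3, summed to 10082 CPM in control members and 11326 CPM in deep control barcodes (10363 to 12355), and to 9552 and 9301 CPM (8666 to 9970) in the MNPQ library. Deep barcodes of at least 1% Malat1 had uptake sums of 12285 CPM (11929 to 12649) in the control and 9640 CPM (9306 to 9983) in the MNPQ library. Such a sum weighs genes by abundance, and Glul, the exception above, was the most abundant gene of the uptake list in members. The sums therefore measure something else than the uptake medians of the preceding paragraph. Mbp was higher in members here too, at 5020 against 1851 CPM in the control and 6567 against 2206 CPM in the MNPQ library. Of the Malat1-poor deep barcodes, those of the control library held 0 Ogt, 0 Per3 and 0 Neat1 UMIs, and those of the MNPQ library 2, 0 and 3. Malat1 itself was lower in members than in these deep barcodes, at 642 CPM (507 to 801) against 1249 (943 to 1621) and at 303 CPM (219 to 408) against 1085 (876 to 1330). Most of the 93 Malat1 UMIs of these deep MNPQ barcodes lay in 2 of them, with 0.67% Malat1 at 5225 UMIs and 0.39% at 7955 UMIs. The MNPQ difference thus rested largely on these 2 barcodes. Gm3764 was at 57.6 CPM against 134 with overlapping intervals in the control library and at 49.3 CPM (19.8 to 102) against 198 (116 to 318) in the MNPQ library. MNPQ Rsrp1 was at 63.3 CPM (29 to 120) against 187 (107 to 303), with intervals that overlapped.

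The comparison of the MNPQ with the control library asked how exposure to the 2 pesticides bore on these cells. Within the members, 967 genes had at least 40 UMIs over both libraries. Of them, 45 (4.65%) differed at least 2-fold in CPM, 22 higher (2.28%) and 23 lower (2.38%) in the MNPQ library, and the median log2 ratio, MNPQ over control, was 0.031. The counting interval excluded 0 for 160 genes (16.5%). Genes named below are the 10 highest and 10 lowest ratios among 957 genes with at least 5 UMIs in each library and at most 20% of either library's molecules in 1 barcode, with a few genes of earlier interest.

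Agt, Itih3, Sparc and Nnat, which encode secreted or membrane proteins, were among the lowest ratios and were lower by more than their counting intervals. Agt, the precursor of angiotensin peptides that brain astrocytes release, had 197 UMIs or 1562 CPM (1351 to 1796) in control members and 49 UMIs or 333 CPM (246 to 440) in MNPQ members. Its log2 ratio was -2.23 (-2.71 to -1.77). Agt was found in 78 of 190 control members, with up to 8 UMIs in a barcode, and in 36 of 221 MNPQ members, with up to 3. Thinned to 500 UMIs it was detected in 39.5% and 13.1% of members, against 2.97% and 1.41% of shallow microglia-like barcodes. Agt lies on chromosome 8 (124556534 to 124569706, minus strand, mm10).

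Itih3, a hyaluronan-binding protein of the inter-alpha-trypsin inhibitor family, had 171 UMIs or 1356 CPM in control members and 43 UMIs or 292 CPM in MNPQ members. Its log2 ratio was -2.22 (-2.73 to -1.73), and it was found in 68 control and 35 MNPQ members. It was detected in 32.1% and 10.9% of thinned members and in 6.93% and 0% of thinned shallow microglia-like barcodes. Members were chosen without Itih3 or Agt, so the choice of barcodes did not use these values. Itih3 lies on chromosome 14 (30908572 to 30923760, minus strand).

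Sparc, a collagen-binding matrix protein, had 415 UMIs or 3290 CPM in control members and 133 UMIs or 903 CPM in MNPQ members, a log2 ratio of -1.87 (-2.16 to -1.58). It is also made by microglia, and in shallow microglia-like barcodes it stood at 4091 and 2877 CPM with a ratio of -0.51 (-0.81 to -0.21). Nnat, a small membrane protein of the endoplasmic reticulum, had 282 and 102 UMIs, or 2236 and 692 CPM, with a ratio of -1.69 (-2.03 to -1.36). In microglia-like barcodes Nnat had 13 and 1 UMIs. Sparc lies on chromosome 11 (55394500 to 55423183, minus strand) and Nnat on chromosome 2 (157560078 to 157562522, plus strand).

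These 4 genes were lower in deep astrocyte-like barcodes of the MNPQ library as well. The deep ratios were -1.39 (-1.58 to -1.21) for Agt, -2.50 (-2.78 to -2.23) for Itih3, -1.82 (-2.01 to -1.63) for Sparc and -1.33 (-1.52 to -1.15) for Nnat. The intervals of Agt did not overlap between members and deep barcodes, and those of the other 3 did. The difference between the classes was not tested. Among the Malat1-poor members Itih3 was at 1325 CPM (1128 to 1546) in the control and 296 CPM (213 to 400) in the MNPQ library. In the 29 and 48 Malat1-poor deep barcodes Itih3 was at 111 CPM (36.2 to 260) and 163 CPM (89.3 to 274), so there the libraries overlapped. Agt in those deep barcodes was at 580 CPM (379 to 849) and 128 CPM (64.1 to 230).

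**Figure D4:**
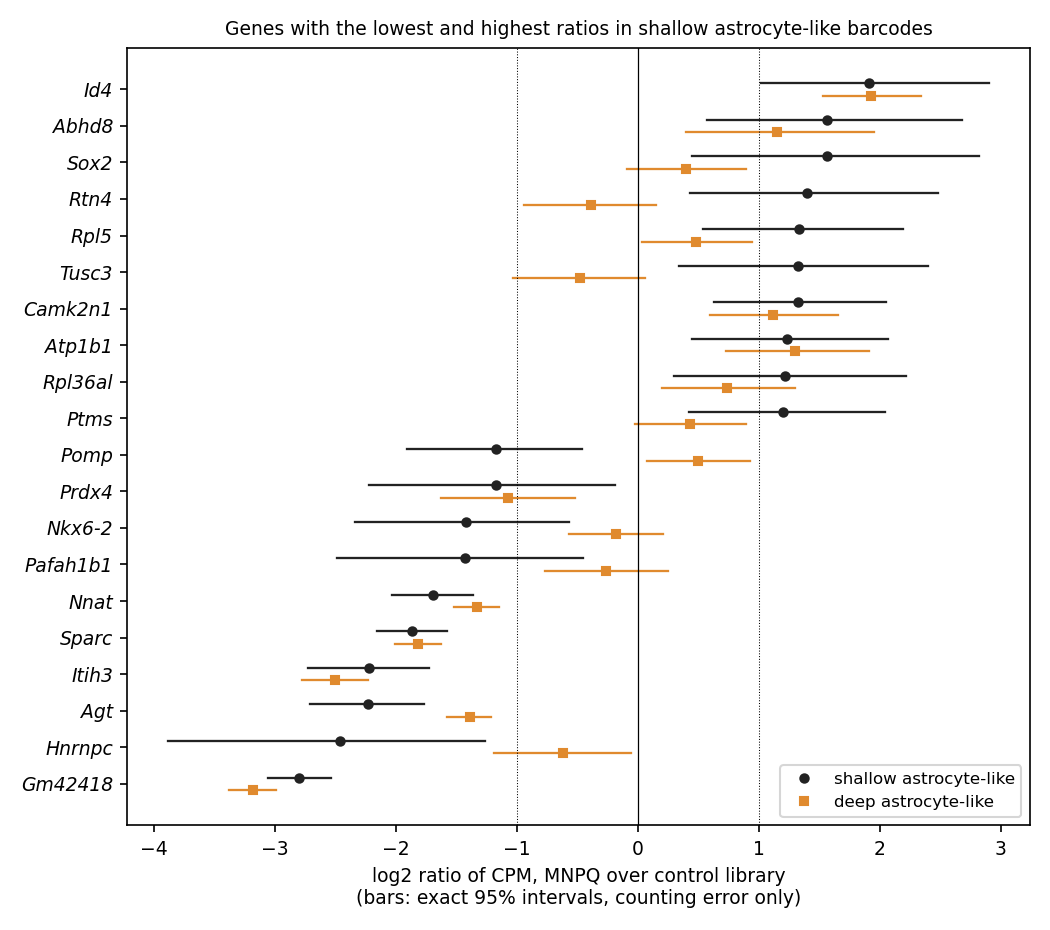
Log2 ratio of CPM, MNPQ over control library (horizontal axis), for the 10 lowest and 10 highest genes of the shallow astrocyte-like barcodes, with exact 95% counting intervals as bars. Black circles are shallow and orange squares deep astrocyte-like barcodes. Agt, Itih3, Sparc and Nnat lie below -1 in both classes, whereas Rtn4, Tusc3 and Pomp lie on opposite sides of 0.

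The 4 genes tended to occur in the same control barcodes. In control members thinned to 500 UMIs, Itih3 was detected in 57.3% of the 75 barcodes with Agt (45.4% to 68.7%) and in 15.7% of the 115 without (9.55% to 23.6%). Sparc was detected in 80% and 44.3%, Nnat in 69.3% and 44.3%, and Nkx6-2, a homeobox factor, in 25.3% and 4.35%. Hbb-bs, a hemoglobin gene, was at 16% and 15.7%, and Gm42418, which is no regional gene, at 96% (88.8% to 99.2%) and 81.7% (73.5% to 88.3%). In MNPQ members Itih3 was detected in 27.6% of the 29 barcodes with Agt (12.7% to 47.2%) and in 8.33% of the 192 without (4.84% to 13.2%). Barcodes with none of the 4 genes made up 18.9% of thinned control members (13.6% to 25.3%) and 49.8% of thinned MNPQ members (43% to 56.6%). Barcodes with all 4 made up 14.2% (9.58% to 20%) and 1.36% (0.281% to 3.92%). Thinned deep astrocyte-like barcodes had nearly the same distribution, with none of the 4 in 19.5% and 48.6% and all 4 in 12% and 1.8%. Fewer barcodes of an Agt- and Itih3-rich kind and less of these RNAs per barcode cannot be told apart by the class sums.

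**Figure D5:**
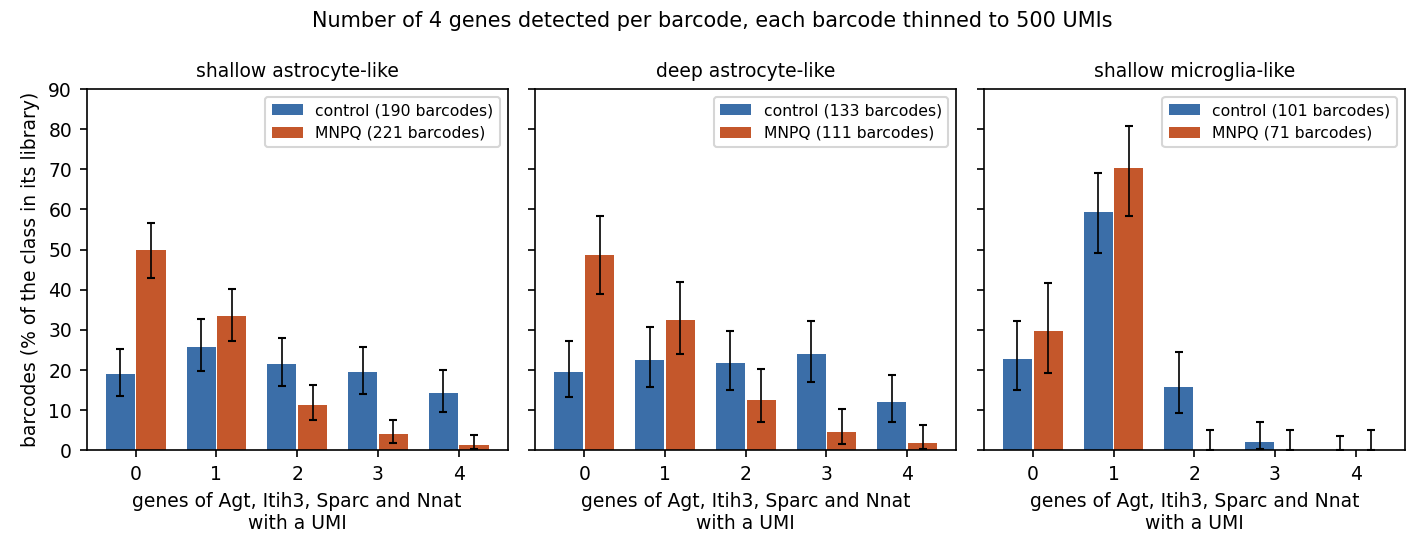
Share of barcodes (vertical axis, % of the class in its library) by the number of the genes Agt, Itih3, Sparc and Nnat with a UMI after thinning to 500 UMIs (horizontal axis), for shallow astrocyte-like, deep astrocyte-like and shallow microglia-like barcodes. Blue bars are the control and orange bars the MNPQ library, with exact binomial 95% intervals as error bars. The bars at 0 stand at 18.9% and 49.8% for members and at 19.5% and 48.6% for deep barcodes.

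The list of regional astrocyte genes, whose levels are known to differ between brain regions, had a median log2 ratio of -1.42 in members. Of its 16 genes 7 had enough UMIs, and 5 of them were at least 2-fold lower in the MNPQ library, beside 89 (4.66%) of all 1909 genes with at least 20 UMIs, whose median was 0.035. Of these 1909 genes, 97 (5.08%) were 2-fold higher, and 9.74% differed 2-fold either way. Agt, Itih3, Sparc, Slc6a11 and the glycine transporter gene Slc6a9 are those 5, and the list was assembled with earlier results of these data known. Slc6a11, the GABA transporter of astrocytes outside synapses, had 71 UMIs or 563 CPM in control and 40 UMIs or 272 CPM in MNPQ members, a ratio of -1.05 (-1.65 to -0.47). Mfge8, a secreted protein that bridges cells to phagocytes, was at 0.28 (0.016 to 0.55). In deep barcodes the list's median was -1.10, with 6 of 12 genes 2-fold lower. Over 5324 genes measured in deep barcodes 6.56% were 2-fold lower and 6.82% 2-fold higher, 13.4% in all. The dissection of each punch cannot be told apart from the treatment in these 2 libraries.

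Gm42418 and Hnrnpc had the lowest ratios among the 957 genes. Gm42418, a transcript that overlaps ribosomal RNA sequence, stood at 6787 CPM in control and 977 CPM in MNPQ members, a log2 ratio of -2.80 (-3.06 to -2.54). It was also lower in deep astrocyte-like (-3.18, -3.38 to -2.99) and in shallow microglia-like barcodes of the MNPQ library (-2.37, -3.29 to -1.56). Hnrnpc, an RNA-binding protein of the nucleus, had 33 and 7 UMIs, a ratio of -2.46 (-3.88 to -1.26) against -0.62 (-1.19 to -0.055) in deep barcodes. Pafah1b1, a dynein regulator, and Nkx6-2 had ratios of -1.43 (-2.49 to -0.45) and -1.42 (-2.34 to -0.57) in members, while their deep intervals included 0. Prdx4, a peroxidase of the endoplasmic reticulum, was at -1.17 (-2.22 to -0.19) and at -1.07 (-1.63 to -0.52) in deep barcodes. Pomp, which helps to assemble the proteasome, was at -1.17 (-1.91 to -0.46) in members and at 0.50 (0.079 to 0.93) in deep barcodes.

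Id4 had the highest ratio among the 957 genes. This inhibitor of basic helix-loop-helix transcription factors had 13 UMIs or 103 CPM (54.9 to 176) in control and 57 UMIs or 387 CPM (293 to 501) in MNPQ members. Its log2 ratio was 1.91 (1.02 to 2.90), close to 1.93 (1.53 to 2.34) in deep barcodes. It was found in 13 of 190 control and 48 of 221 MNPQ members, and never exceeded 3 UMIs in a barcode. Shallow microglia-like barcodes had 0 and 2 Id4 UMIs. Of 6 measured genes of the list of Id and Hes repressors 5 were higher in MNPQ members, with a median of 0.54, among them Id2 (0.35, 0.0055 to 0.70) and Id3 (0.54, 0.035 to 1.06), whereas Hes5 was at -0.012 (-0.42 to 0.40). Over all 1909 genes with at least 20 UMIs 52.5% were higher, with a median of 0.035. Id4 lies on chromosome 13 (48261228 to 48266026, plus strand).

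The remaining 9 highest genes had between 9 and 24 UMIs in control and between 31 and 70 in MNPQ members. Camk2n1, an inhibitor of calmodulin-dependent kinase, had 24 and 70 UMIs and a log2 ratio of 1.32 (0.63 to 2.05), with 1.12 (0.60 to 1.65) in deep barcodes. Atp1b1, a subunit of the sodium pump, had 19 and 52 UMIs and a ratio of 1.23 (0.45 to 2.07), with 1.30 (0.73 to 1.91) in deep barcodes. Sox2, a transcription factor of neural progenitors and astrocytes, had 9 and 31 UMIs and a ratio of 1.56 (0.45 to 2.82), with 0.40 (-0.093 to 0.89) in deep barcodes. Leaving out the barcodes with Agt or Itih3, an alternative added after the data were seen, brought Sox2 to 0.12. Abhd8 was at 1.56, the ribosomal protein genes Rpl5 and Rpl36al at 1.33 and 1.22, and Ptms at 1.20, with deep ratios between 0.43 and 1.15. The reticulon gene Rtn4 (1.40, 0.43 to 2.48) and Tusc3 (1.32, 0.34 to 2.40) stood apart from their deep ratios of -0.39 (-0.94 to 0.15) and -0.48 (-1.03 to 0.061). In shallow microglia-like barcodes Rpl36al was also higher, at 1.16 (0.17 to 2.20), and Camk2n1 was at 1.02 (-0.18 to 2.27). There Rpl5, Ptms and Abhd8 were at 0.23, 0.30 and 0.066, and Rtn4 and Atp1b1 at -0.41 and -0.69, each with an interval that included 0. Sox2 and Tusc3 had 0 UMIs in those barcodes.

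Genes named for earlier interest lay on both sides of 0. Nupr1, a stress-inducible nuclear protein, had 3 UMIs in control and 22 in MNPQ members, a ratio of 2.65 (0.92 to 5.03), with 2.78 (1.77 to 3.98) in deep barcodes. Igfbp2, which binds insulin-like growth factors, had 42 and 89 UMIs and a ratio of 0.86 (0.31 to 1.42), against 1.84 (1.48 to 2.21) in deep barcodes. The peroxiredoxin gene Prdx6 had 240 and 450 UMIs, or 1903 and 3055 CPM, a ratio of 0.68 (0.45 to 0.91) against 0.95 (0.82 to 1.09). Gria1, an AMPA receptor subunit, had 10 and 5 UMIs, too few to place on either side of 0 (-3.12 to 0.46). Ptgds had 16 and 62 UMIs but 59.7% of its MNPQ molecules lay in 1 barcode.

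The glutamate transporter gene Slc1a2 and the bicarbonate transporter gene Slc4a4, both of the rule, were lower in MNPQ deep barcodes and near 0 in members. Slc1a2 stood at 2711 CPM (2432 to 3015) in control and 2593 CPM (2340 to 2867) in MNPQ members, a log2 ratio of -0.064 (-0.28 to 0.15), while its deep ratio was -0.83 (-0.95 to -0.71). Slc1a3 was at 1617 and 1120 CPM, a ratio of -0.53 (-0.84 to -0.23) beside a deep ratio of -0.55 (-0.69 to -0.40). Slc4a4 was at -0.12 (-0.78 to 0.55) beside -1.13 (-1.44 to -0.82). In deep barcodes under 1% Malat1, Slc4a4 stood at 290 CPM (154 to 496) in the control and 210 CPM (124 to 332) in the MNPQ library, with overlapping intervals. At or above 1% it stood at 721 and 335 CPM. Slc1a2 was lower in the MNPQ library on both sides of that line, at 3099 and 1926 CPM under 1% and 3644 and 2041 CPM at or above it. Since these genes chose the members, the ratios are a description, and their difference between classes was not tested. The uptake list outside and inside the rule had 4 of 9 genes higher in MNPQ members, with a median of -0.064.

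Nuclear-encoded respiratory subunits were higher in the deep barcodes of the MNPQ library and had medians near 0 in the members. Ribosomal protein genes had medians above 0 in both, but their sum was not higher in Malat1-poor deep MNPQ barcodes. For complex I subunits the median log2 ratio was 0.062 in members (24 of 37 higher) and 0.41 in deep barcodes (36 of 37). For complexes III to V it was 0.035 (21 of 37 higher) and 0.50 (36 of 37). Ribosomal protein genes had a median of 0.20 in members, with 59 of 75 higher, and 0.40 in deep barcodes, with 77 of 78 higher. The members' median was lower without the barcodes with Agt or Itih3, as given below. In deep barcodes under 1% Malat1 these genes summed to 59373 CPM (57139 to 61672) in the control and 55794 CPM (54224 to 57399) in the MNPQ library. In deep barcodes of at least 1% Malat1 the sums were 29922 and 40806 CPM. Over all genes measured, 52.5% of 1909 were higher in MNPQ members and 54.9% of 5324 in MNPQ deep barcodes. The mitochondrially encoded genes had a median of 0.069 in members and -0.31 in deep barcodes, where 11 of 12 were lower. As given above, the deep barcodes of the 2 libraries also differed in how many were poor in Malat1. Under 1% Malat1, complex I subunits summed to 16766 CPM in control and 21321 CPM in MNPQ deep barcodes, and complexes III to V to 30344 and 36364. At or above 1% these sums were 11098 and 14759, and 17839 and 24957. Mitochondrially encoded genes summed to 82204 and 70102 CPM under 1%, and to 67657 and 51916 at or above it. The part of Malat1-poor barcodes in the medians was not tested.

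Antioxidant, stress and metabolic lists were mixed in members. Beside them, 52.5% of all 1909 genes with at least 20 UMIs were higher in MNPQ members and 5.08% at least 2-fold higher, with a median of 0.035. The antioxidant and NRF2 counts lay near the first of these shares. The antioxidant enzymes had 8 of 13 genes higher in MNPQ members and a median of 0.16, which turned to -0.19 in barcodes with at most 10% mitochondrial UMIs and to -0.22 without the barcodes with Agt or Itih3. The list of NRF2 targets and glutathione genes had 6 of 12 and 0.067. The endoplasmic reticulum stress list had 4 of 8 higher, 2 of them 2-fold. Of 18 immediate early genes 3 had enough UMIs, and 3 of 3 were over 2-fold higher, Nfkbia at 1.36 (-0.17 to 3.18), Jund at 1.13 (-0.036 to 2.43) and Rhob at 1.02 (-0.23 to 2.42), each with an interval that included 0. All 3 metallothionein genes were higher, with Mt1 at 0.24 (0.14 to 0.35), Mt2 at 0.28 (0.081 to 0.49) and Mt3 at 0.13 (-0.0061 to 0.27). Fth1 was at 0.36 (0.25 to 0.47). Of 11 cholesterol synthesis genes 9 were higher with a median of 0.53, but the median was -0.0073 without the barcodes with Agt or Itih3. Glycolysis genes had a median of 0.064, ion and gap junction genes 0.015, lipid transport genes -0.16 with 3 of 15 higher, and the 25 astrocyte markers outside the rule 0.015. Of 26 genes of reactive astrocytes 6 had enough UMIs, and 0 of them were higher in MNPQ members, with a median of -0.35. Gfap, the filament protein used to mark reactive astrocytes, had 33 and 38 UMIs, a ratio of -0.020 (-0.73 to 0.70), and was not measurably different at this depth. In deep barcodes Gfap was at -0.96, with 3 of 8 genes of that list higher. Antioxidant enzymes were higher there in 14 of 17 genes (median 0.41) and NRF2 and glutathione genes in 13 of 17 (0.40). Glycolysis genes were higher in 13 of 17, endoplasmic reticulum stress genes in 7 of 13 and lipid transport genes in 9 of 18. Over all 5324 genes measured there 54.9% were higher.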

How the data were processed

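The deposited files hold counts, whole numbers of UMIs per gene and barcode, made with Cell Ranger 3.0.2 per the file headers. The genome build is mm10 per the submitters' processing notes, and other settings, strand handling and the choice of barcodes are not given in the sources used here. The matrices list 31053 genes, of which 31011 identifiers were found in GENCODE M21, the source of coordinates. Where 2 identifiers shared a symbol, the one with more UMIs was used.

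The class was cut per barcode by the rule stated above, with no clustering, and the name astrocyte-like rests on marker genes. UMIs were summed per class and library and scaled to CPM. Levels have exact Poisson, shares exact Clopper-Pearson and log2 ratios exact conditional binomial 95% intervals. These leave out variation between cells, mice, dissections and libraries. Doublets called by Scrublet (scanpy 1.11.5), 9 of 882 control and 6 of 854 MNPQ barcodes and 2 and 3 of the members, were kept. Thinning drew 500 UMIs per barcode and left no member out.

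A gene could be named when it had 40 UMIs or more in all, 5 or more per library and no barcode with over 20% of a library's molecules. The 10 highest and 10 lowest ratios between libraries were taken, the 10 highest and 10 lowest of shallow over deep ranked by the library with the smaller ratio, and, from the 10 most abundant genes, examples. The rule's genes and Agt, Itih3, Slc6a11, Sparc, Gria1, Nupr1, Id4, Igfbp2 and Prdx6 were taken regardless of their values. A gene that met these criteria is not reported here. Lists counted genes with at least 20 UMIs, and a median needed 5 genes. The members, lists and genes were chosen with earlier results of these data known. Other settings numbered 12, and 4 more were added after the data were seen. The calculations (Python 3.11.15, numpy 2.4.6, scipy 1.17.1, pandas 2.3.3) were tested on simulated counts.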

Additional observations from a re-analysis of the deposited data

How the results depend on the processing

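No paired analysis was possible because each group had 1 library. The cause of the changes below was not tested, except where fewer barcodes or genes enter by construction. With at most 10% mitochondrial UMIs (66 and 86 members) the members were 11.2% of kept control and 14.9% of kept MNPQ barcodes, and 40.7% and 46.7% of astrocyte-like ones. There 9 genes were 2-fold higher and 7 lower in the MNPQ library, and the medians of MNPQ over control were -0.19 for antioxidants, 0.023 for lipid transport and -1.58 for regional genes. Shallow over deep was then -1.21 for uptake in the control library, and 0.33 and 0.59 for mitochondrially encoded genes. Under 800 UMIs the shares were 17.7% and 21.5% of kept and 48.3% and 55.4% of astrocyte-like barcodes, with uptake at -1.05 in the control library. With at least 2% markers they were 17.8% and 20.7% of kept barcodes, with 14 genes lower, uptake at -0.65 and -0.47 and ribosomal proteins at 0.60 and 0.40. With 0 UMIs of the other cells' genes they were 17.2% and 20.1%, with MNPQ uptake at -0.47. Weighting barcodes equally gave uptake of -0.99 and -0.61, mitochondrial medians of 0.58 and 0.83 and control ribosomal proteins of 0.86. Thinning gave 14 genes lower, control uptake of -1.07, mitochondrial medians of 0.55 and 0.80, control ribosomal proteins of 0.88 and an MNPQ median of all genes of 0.031. Centring on the median gene moved the control shallow over deep median of all genes to -0.16, uptake to -1.01, mitochondrially encoded genes to 0.56 and ribosomal proteins to 0.57. Lowering the gene minimum gave 97 genes higher and 89 lower, and raising it 2 and 8, with regional genes at -1.87.

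The remaining settings were chosen after seeing the data. Without barcodes holding Agt or Itih3 (90 and 161 members left), control shallow over deep was -0.57 for Cdc123, -0.74 for Meg3, 0.43 for ribosomal proteins and 0.60 for mitochondrially encoded genes (0.77 in the MNPQ library). MNPQ over control was -0.22 for antioxidants, -0.0073 for cholesterol synthesis and 0.052 for ribosomal proteins. Without barcodes of at least 1% Malat1, control shallow over deep was -0.22 for Meg3, -0.15 for Rplp1, 0.78 for Rsrp1, 0.38 for the markers outside the rule, -0.11 for ribosomal proteins and 0.47 for mitochondrially encoded genes. In the MNPQ library it was 0.20, 0.72 and, for complexes III to V, -0.17, and regional genes were at -1.12 for MNPQ over control. Without hemoglobin (116 and 201 members), 13 genes were lower, regional genes stood at -1.17 and control ribosomal proteins at 0.63. Leaving out barcodes with any marker of another cell left 26 and 23 members and 8 and 3 deep barcodes. There 0 genes were higher and 4 lower, and Igfbp2 was at -0.28, Nkx6-2 at 0.24 and Slc6a11 at 0.50. Shallow over deep was -0.78 and -0.059 for Cox7a2l, -0.059 for Rplp1 and -0.32 for Rps24 in the MNPQ library, 0.059 for control markers, 1.22 and 0.85 for ribosomal proteins, 0.19 and 0.45 for mitochondrially encoded genes and 0.09 for all MNPQ genes. With 1 library per group, median depths of 638 and 629 UMIs and few molecules per gene, ratios of single genes carry wide intervals.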
